A study of Mus musculus with 3 samples.

Results

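The cell cycle and DNA replication genes described here were 41 genes picked by their symbol and placed in 3 groups by the phase in which their products act. The G1 group held 13 genes (D-type and E-type cyclins with their kinases, inhibitors of those kinases, and E2F factors), the S group 13 genes (replication machinery and nucleotide supply) and the mitotic group 15 genes (mitotic cyclins, kinases and checkpoint proteins). All 41 were found among the 55536 annotated genes, and all 41 were among the 11473 protein-coding genes with a mean of at least 0.1 TPM. TPM is a length-corrected transcript abundance with the same total in every library, so it can be set side by side between genes.

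The RNA came from the cytosol of primary macrophages grown from C57BL/6J mouse bone marrow and given Lipid A, the Toll-like receptor 4 ligand of bacterial lipopolysaccharide, at 100 ng/ml for 40 minutes. Ribosomal RNA was depleted and 3 libraries were sequenced, from 1 µg of RNA apiece and with sizes of 250 to 400, per the labels. They are numbered biological replicates 1, 2 and 3 and share a single donor record, so the labels do not show whether separate mice were used. The p-values therefore reflect only how these 3 libraries varied, and that variation may be technical. The libraries form 1 group. Untreated cells and other cell fractions were not analysed here, and nothing below is a response to Lipid A.

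Cells enter the cycle when D-type cyclins with Cdk4 or Cdk6, and then E-type cyclins with Cdk2, phosphorylate the retinoblastoma protein and release E2F factors. E2F factors switch on genes of DNA synthesis, while genes of mitosis are held back by the DREAM complex in resting cells and are transcribed later, from promoters that often carry a CHR element and CCAAT boxes. Macrophages grown from marrow divide in response to the growth factor CSF1, and Cdkn1a, the kinase inhibitor p21, is known as a brake on that division.

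Library totals in the gene table were 37861150, 37136495 and 58889061 expected counts in replicates 1, 2 and 3. Protein-coding genes held 33.2, 37.0 and 24.1% of TPM, so TPM values of coding genes were lower in replicate 3, and comparisons between libraries below use TMM-normalised log2 CPM instead (counts scaled to library size). All 10 macrophage markers examined lay above the median coding gene, with summed levels of 10700, 9166 and 6369 TPM. Summed levels were 1.47 to 2.28 TPM for 8 myeloid progenitor markers, 35.09 to 44.73 TPM for 6 neutrophil markers and at most 0.24 TPM for each list of 5 erythroid, lymphocyte or stromal markers. The 4 nuclear RNAs examined (Malat1, Neat1, Xist and Rn7sk) were all highest in replicate 3, and Malat1 stood at 291.25, 264.02 and 897.82 TPM. In the edgeR test of spread between libraries described below, those 4 and the macrophage marker C1qa were called.

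The median level stepped down from the G1 to the S to the mitotic group in every library. Median TPM in replicates 1, 2 and 3 was 6.94, 6.21 and 4.30 for the G1 group, 4.23, 4.87 and 4.03 for the S group, and 1.65, 2.54 and 1.20 for the mitotic group. The median detected coding gene stood at 6.54, 7.04 and 4.75 TPM in the same libraries. The S group median was 2.56, 1.92 and 3.36 times the mitotic median. The G1 and S medians were close in replicate 3. In a bulk measurement like this one, a lower level can mean fewer cells that hold the RNA or less of it in each cell, and these cannot be told apart.

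Each gene was also tested against the median detected coding gene (limma on log2(TPM + 1), adjusted p under 0.05 over all 11473 genes). Above the median were 10 of the 41 genes, while 45.8% of all detected coding genes were called above it. Below the median were 25 of the 41, against 45.7% of all genes, and 6 were not called. By group, 5 genes of G1, 3 of S and 2 of mitosis lay above, and 6, 8 and 11 lay below. When genes with hardly any RNA were kept in the comparison, which lowers the median, 19 of the 41 were above and 20 below. The shares of all genes called in that setting are not given here, so these counts cannot be set beside 45.8 and 45.7%.

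**Figure D1:**
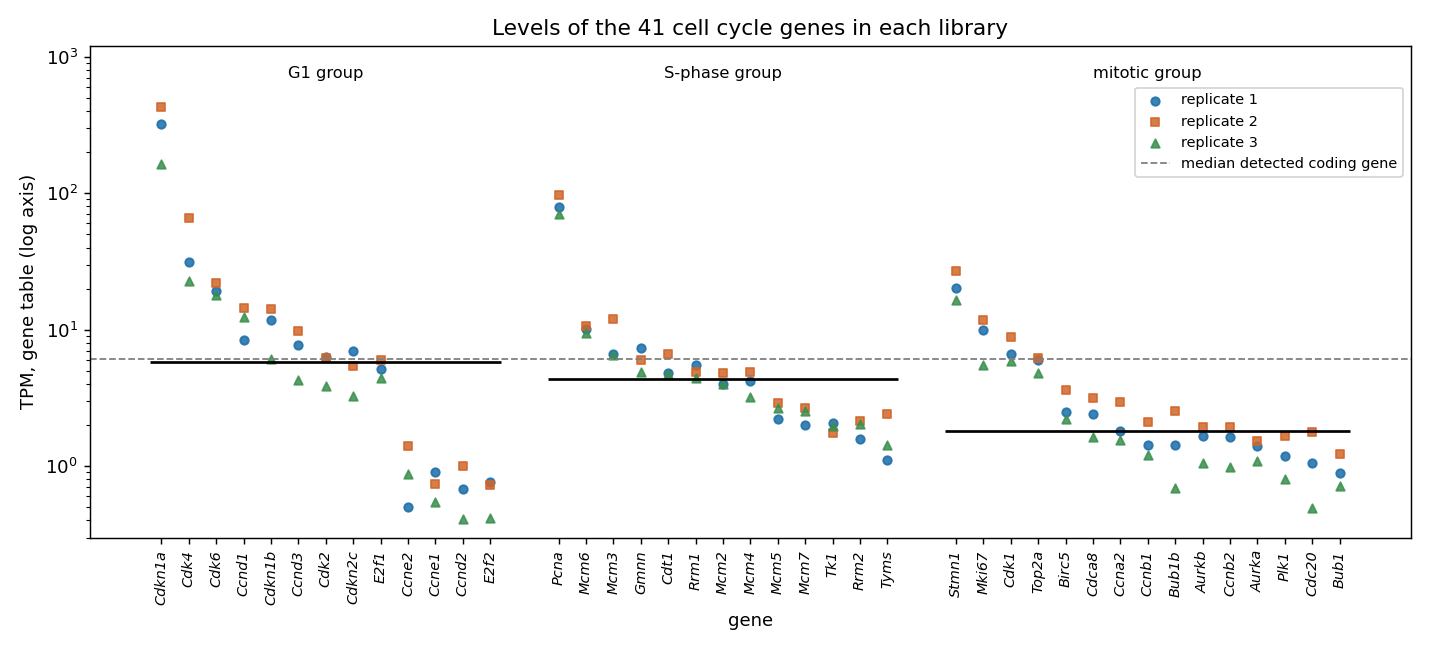
Level of each of the 41 genes in each library, in TPM from the gene table on a log axis, ordered by mean level within the G1, S and mitotic groups; solid lines mark the mean over libraries of each group's median and the dashed line that of the median detected coding gene. Cdkn1a and Pcna stand above all others of their groups, and 11 of the 15 mitotic genes lie below the dashed line by test.

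The G1 group spanned the widest range, from a mean of 0.637 TPM for E2f2 to 306 TPM for Cdkn1a. Cdkn1a (ENSMUSG00000023067.14, chr17:29090976-29100727, plus strand, mm10) was measured at 323.93, 430.13 and 164.24 TPM. It lay 5.34 ± 0.16 (SE) log2 units above the median coding gene (limma adjusted p = 9.26e-12), in percentile 98.8 of detected coding genes. Alone it made up 52.7, 52.8 and 40.5% of the summed TPM of all 41 genes. The related inhibitor Cdkn1b, which encodes p27 and holds Cdk2 in check in resting cells, was at 11.75, 14.12 and 6.05 TPM. Cdkn2c, which encodes the Cdk4 and Cdk6 inhibitor p18, was at 6.94, 5.41 and 3.26 TPM. The 3 inhibitors were thus unequal in the same order in every library.

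Among the G1 kinases, Cdk4 was at 31.08, 65.62 and 22.79 TPM. Its partner in function Cdk6 was at 19.25, 21.94 and 17.88 TPM. Cdk2, which acts with E-type and A-type cyclins, was at 6.32, 6.21 and 3.87 TPM. Cdk4 and Cdk6 were above the median coding gene and Cdk2 was not called either way.

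Of the D-type cyclins, Ccnd1 (chr7:144929931-144939925, minus strand) was at 8.47, 14.46 and 12.30 TPM. Ccnd3 was at 7.77, 9.84 and 4.30 TPM. Ccnd2 was at 0.68, 1.01 and 0.41 TPM and lay below the other D-type cyclins in every library. Both E-type cyclins, which activate Cdk2 at the start of S phase, were low. Ccne1 stood at 0.91, 0.74 and 0.55 TPM, and Ccne2 at 0.50, 1.40 and 0.87 TPM. E2f1, an activating E2F factor, was at 5.12, 5.95 and 4.41 TPM, and its relative E2f2 was at 0.76, 0.73 and 0.42 TPM.

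The S group ranged from a mean of 1.65 TPM for Tyms to 82.1 TPM for Pcna. Pcna encodes the sliding clamp of DNA polymerases, which also serves in DNA repair, and was measured at 78.89, 96.60 and 70.72 TPM (chr2:132249162-132253314, minus strand). It lay 3.55 ± 0.11 (SE) log2 units above the median coding gene (limma adjusted p = 9.50e-12). No other S gene came near it in any library.

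The 6 Mcm genes encode the subunits of the hexameric helicase that opens DNA at origins. Mcm6 was the highest of them on average, at 10.08, 10.72 and 9.41 TPM. Mcm3 was at 6.64, 11.88 and 6.55 TPM, the highest Mcm gene in replicate 2. Both were above the median coding gene, although the call for Mcm3 was lost without replicate 3 (limma adjusted p = 0.0604) and its sign turned in the second transcript table (log2 difference -0.05). Mcm4 was at 4.23, 4.87 and 3.20 TPM and Mcm2 at 3.99, 4.80 and 4.03 TPM. Mcm5 was at 2.22, 2.92 and 2.66 TPM and Mcm7 at 2.01, 2.67 and 2.52 TPM. Those other 4 were below the median, so subunits of 1 complex differed several-fold in RNA level per length.

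Cdt1, which loads the helicase, was at 4.81, 6.69 and 4.73 TPM. Gmnn encodes geminin, the inhibitor of Cdt1, and was at 7.30, 6.00 and 4.88 TPM. Neither was called above or below the median. Ribonucleotide reductase makes deoxyribonucleotides from a large subunit, Rrm1, and a small subunit, Rrm2. Rrm1 was at 5.52, 4.88 and 4.44 TPM and Rrm2 at 1.57, 2.14 and 2.04 TPM, with Rrm1 higher in each library. Thymidylate synthase, Tyms, was at 1.11, 2.41 and 1.42 TPM, and thymidine kinase, Tk1, at 2.08, 1.76 and 1.98 TPM. All 4 of these nucleotide genes were below the median coding gene, Rrm1 by the least and not without replicate 2 (limma adjusted p = 0.0767).

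Promoter sequences from RefSeq (build GRCm38.p6, 250 bases before to 50 after each start) were matched to 33 of the 41 genes, with 38 promoters in all. Aurkb, Stmn1, Gmnn, Ccnd1, Mcm4, Ccna2, Ccnd2 and Ccne2 had no entry. Both strands were searched for E2F-type letters (TTTCCCGC, TTTGGCGC, TTTCGCGC, TTTGCCGC or TTCCCGCC, of which the first and last overlap in a longer run). They were found in 6 of 11 S genes (Cdt1, Mcm3, Mcm5, Mcm6, Mcm7 and Rrm1), 2 of 10 G1 genes (Cdk2 and E2f2) and 1 of 12 mitotic genes (Cdk1). Such a match was held by 4.46% of all 27025 genes with a promoter, and by 3.89% of all 32851 promoters. The stretches of Mcm6, Mcm5 and Rrm1 below show where these letters lie before the start, read 5′ to 3′ on the gene's strand, with the matches in capitals. The first capital run in Mcm6 and the run in Mcm5 each hold 2 overlapping matches on opposite strands.
Mcm6, chr1:128359741-128359823, minus strand: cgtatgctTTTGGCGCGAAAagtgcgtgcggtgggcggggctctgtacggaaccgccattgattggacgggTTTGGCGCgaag
Mcm5, chr8:75109349-75109448, plus strand: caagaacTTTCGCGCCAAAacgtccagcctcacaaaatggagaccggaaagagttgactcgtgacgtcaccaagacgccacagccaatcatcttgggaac
Rrm1, chr7:102441597-102441659, plus strand: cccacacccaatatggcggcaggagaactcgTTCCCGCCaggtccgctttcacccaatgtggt
The letters in Rrm1 differ from those in the other two. The 3 genes had unequal levels, with Mcm6 highest and Mcm5 lowest in each library. A match is a description of the sequence and shows no binding.

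The mitotic group ranged from a mean of 0.940 TPM for Bub1 to 21.2 TPM for Stmn1. Stmn1 encodes stathmin, which destabilises microtubules and is not limited to mitosis, and was at 20.28, 26.77 and 16.55 TPM. The proliferation marker Mki67, whose product coats mitotic chromosomes, was at 9.97, 11.76 and 5.47 TPM. These were the mitotic genes called above the median. That call for Mki67 was lost when only genes of at least 1 TPM were used for the median (limma adjusted p = 0.751). Cdk1, the kinase that drives entry into mitosis, was at 6.67, 8.79 and 5.89 TPM, and Top2a, which untangles DNA, was at 5.95, 6.24 and 4.78 TPM. Neither of that pair was called above or below.

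The other 11 mitotic genes lay below the median coding gene. Of the mitotic cyclins, Ccna2 was at 1.80, 2.94 and 1.56 TPM, Ccnb1 at 1.43, 2.09 and 1.20 TPM, and Ccnb2 at 1.63, 1.92 and 0.99 TPM. In the chromosomal passenger complex, which corrects the attachment of chromosomes to the spindle, the kinase Aurkb was at 1.65, 1.94 and 1.05 TPM. Its partner Birc5, known as survivin, was at 2.50, 3.62 and 2.22 TPM, and its partner Cdca8, known as borealin, at 2.42, 3.16 and 1.64 TPM. The RNA levels of these 3 lay between 1.05 and 3.62 TPM, below that of Incenp, the scaffold of the complex, given with the further mitosis genes.

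The spindle checkpoint kinase Bub1 was at 0.89, 1.22 and 0.71 TPM, and the checkpoint protein Bub1b at 1.44, 2.54 and 0.69 TPM. Cdc20, which activates the ubiquitin ligase that ends mitosis, was at 1.06, 1.79 and 0.49 TPM. Aurka, the kinase of spindle poles, was at 1.41, 1.53 and 1.10 TPM and Plk1, a kinase with many mitotic roles, at 1.18, 1.66 and 0.80 TPM. These 5 had no common order on the log2 CPM scale, where Bub1, Cdc20 and Plk1 were highest in replicate 2, Bub1b in replicate 1 and Aurka in replicate 3.

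CHR letters (TTTGAA or TTTAAA, both strands) were found in 11 of the 12 matched mitotic genes, all but Bub1, against 4 of 11 S genes and 3 of 10 G1 genes, and in 30.6% of all genes or 27.6% of all promoters. CCAAT letters (both strands) were found in 11 of 12 mitotic genes, all but Birc5, in 8 of 11 S genes and in 5 of 10 G1 genes, against 41.1% of all genes or 37.4% of all promoters. The letters are short and frequent, and the phase of a gene was not used to find them. Promoter stretches of 4 mitotic genes are shown because both kinds of letters lie close together before the start; capitals mark CHR and CCAAT matches, and ATTGG and TTCAAA are matches on the opposite strand.
Ccnb1, chr13:100786517-100786591, minus strand: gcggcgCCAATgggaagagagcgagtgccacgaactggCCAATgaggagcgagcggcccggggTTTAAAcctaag
Cdc20, chr4:118437349-118437403, minus strand: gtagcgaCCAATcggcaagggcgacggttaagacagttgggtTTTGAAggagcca
Top2a, chr11:99024200-99024294, minus strand: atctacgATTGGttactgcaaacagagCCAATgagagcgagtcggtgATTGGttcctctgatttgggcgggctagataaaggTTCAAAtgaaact
Mki67, chr7:135716465-135716574, minus strand: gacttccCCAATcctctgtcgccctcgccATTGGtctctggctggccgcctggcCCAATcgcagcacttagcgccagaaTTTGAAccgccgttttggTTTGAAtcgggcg
Cdc20 has another CCAAT match, left in small letters, whose first base lies 8 bases before the start and which runs past the stretch shown. Outside its stretch, Top2a has another CHR match 179 bases before the start and CCAAT matches 227, 189 and 149 bases before. Of these 4 genes Mki67 had the highest level in every library and Cdc20 the lowest.

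**Figure D2:**
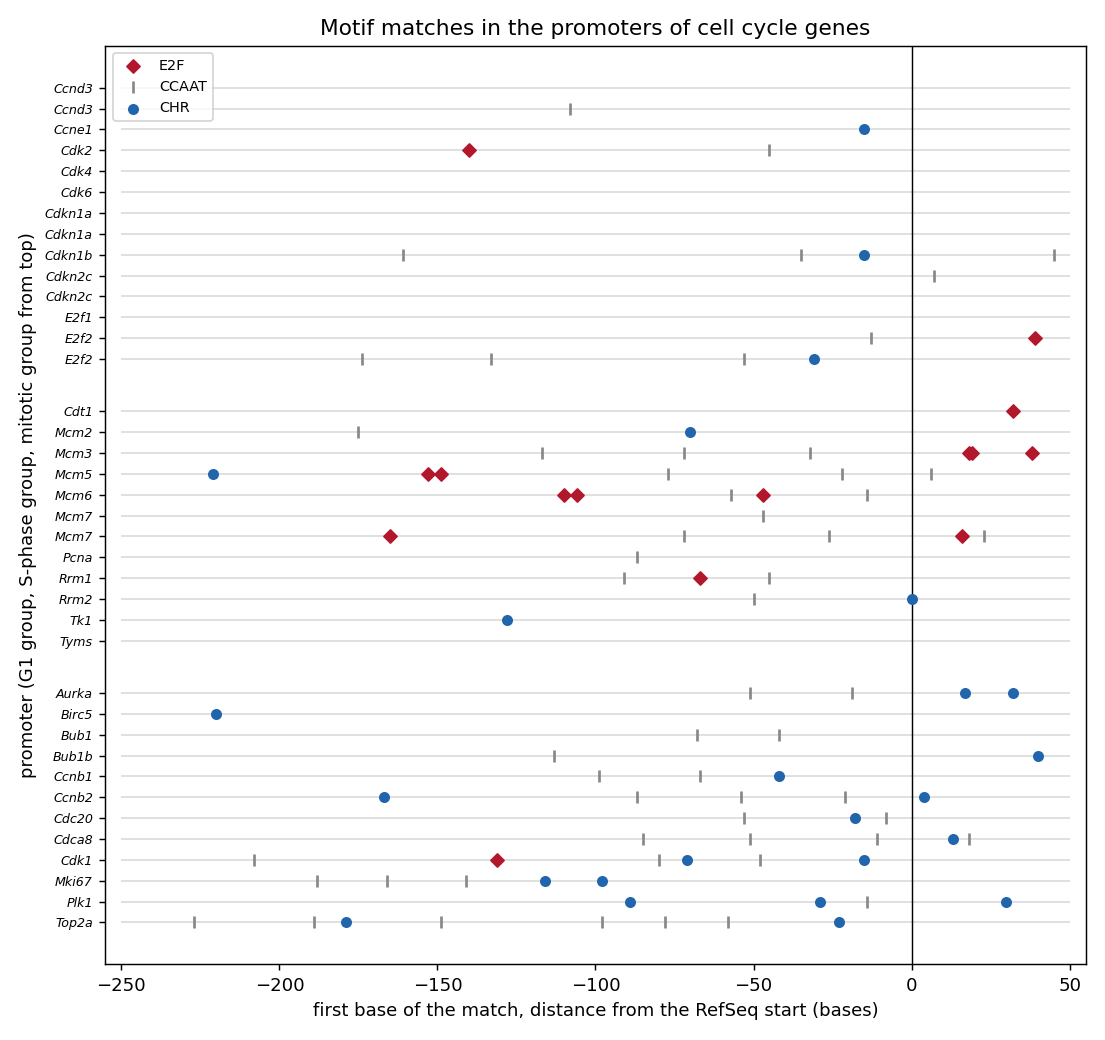
Distance in bases from the RefSeq start (vertical line at 0) to the first base of each E2F, CCAAT and CHR match in the 38 promoters of 33 genes, with 1 line per promoter and the G1, S and mitotic groups from top to bottom. E2F matches lie in 6 of 11 S genes and CHR matches in 11 of 12 mitotic genes.

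The S and mitotic groups were highest in different libraries once library size was taken into account. On the log2 CPM scale 10 of the 13 S genes were highest in replicate 3 and 10 were lowest in replicate 1. By contrast, 10 of the 15 mitotic genes were highest in replicate 2, and 1, Aurka, was highest in replicate 3. Of all 12250 genes tested, 30.6, 37.1 and 32.3% were highest in replicates 1, 2 and 3. The median deviation of S genes from their own means was -0.17, -0.06 and 0.14 log2 units in replicates 1, 2 and 3, while that of mitotic genes was -0.04, 0.14 and -0.11. G1 genes had no common order, with 4, 5 and 4 highest in replicates 1, 2 and 3.

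Mcm5, for example, was at 3.07, 3.33 and 3.78 log2 CPM, and Rrm2 at 2.14, 2.47 and 2.97. Mcm2 was at 4.18, 4.32 and 4.64 log2 CPM. These S genes were all lowest in replicate 1 and highest in replicate 3. Mki67, at 7.14, 7.24 and 6.68 log2 CPM, and Cdc20, at 1.29, 1.57 and 0.65, were lowest in replicate 3. The exceptions among S genes were Gmnn and Rrm1, highest in replicate 1, and Mcm4, highest in replicate 2. The deviations were small, no group was tested as a whole, and the genes of a library share its depth and composition. The 4 nuclear RNAs were also highest in replicate 3, with a median deviation of -0.19, -1.22 and 1.19 log2 units, and macrophage markers were highest in replicate 1 in 8 of 10 cases. Their part in the order of the libraries was not tested.

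**Figure D3:**
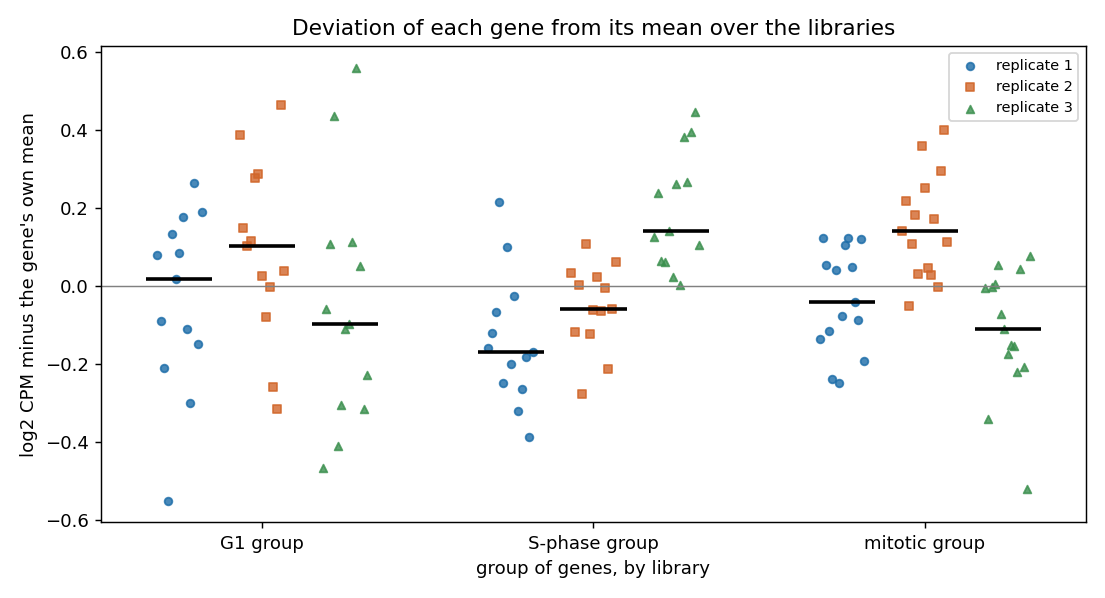
Deviation of each gene's log2 CPM in each library from its own mean over the 3 libraries, by group, with 1 point per gene and library and bars at the group medians. The S genes have their highest median in replicate 3 (0.14) and the mitotic genes in replicate 2 (0.14).

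Variation between libraries beyond that of genes of like abundance was tested with edgeR's goodness-of-fit test on the counts. It called 1 of the 41 genes, Ccnd1, while 1.71% of the 12250 genes tested were called. Ccnd1 was at 5.42, 6.08 and 6.40 log2 CPM (edgeR adjusted p = 0.0333), so it was lower in replicate 1 than in the others. The call was lost without replicate 1 (edgeR adjusted p = 1.00) or without replicate 3 (0.473), with no filter on low counts (0.0868) and with the counts of the second transcript table (0.0979). Cdkn1a, at 9.61, 9.92 and 9.07 log2 CPM, and Cdkn1b, at 5.32, 5.46 and 4.78, had unadjusted p of 0.022 and 0.021 in the same edgeR test but did not pass the adjustment. Unadjusted edgeR p was under 0.05 for 3 of the 41 genes and for 753 of the 12250 genes tested. Both inhibitors were lowest in replicate 3, as were 15 of the 41 genes and 32.7% of all genes tested. The median SD of log2 CPM was 0.211 over the 41 genes and 0.161 over all genes tested. Unlike the test, these SDs take no account of abundance, and 25 of the 41 genes lay below the median coding gene.

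Within each library, 18 pairs of related genes were compared on the log2(TPM + 1) scale. A difference was called for 11 of the 18 (limma, adjusted over all genes of each fit), where 87.6% of all coding genes set against the same second genes were called. Since the second gene's error is common to every row of such a fit, its p-values are not reliable. Those below come instead from the sum of both genes' own moderated variances. The first fit gave a smaller limma adjusted p for Cdkn1a against Cdkn1b (5.59e-105 against 7.72e-10) and a larger one for Bub1 against Bub1b (0.304 against 0.0714). The same 11 pairs were called that way. That variance leaves out the pairing within a library, so these p-values do not measure the SD of the differences printed beside them. For Ccnd1 over Ccnd3, for example, that SD was 0.62 while the SE in the test was 0.169. Values with a replicate left out were computed only by the first fit, so each p given below for such a case is not reliable either.

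In the G1 group the largest difference was that of Cdkn1a over Cdkn1b, at 4.67, 4.83 and 4.55 in replicates 1, 2 and 3, a mean of 4.69 ± 0.14 (SD, n = 3; limma adjusted p = 7.72e-10). Ccnd1 exceeded Ccnd2 by 2.89 ± 0.37 and Ccnd3 exceeded Ccnd2 by 2.24 ± 0.29. Ccnd1 exceeded Ccnd3 by 0.11, 0.51 and 1.33, a wide spread, and that call was lost without replicate 3 (limma adjusted p = 0.0742). Cdk4 exceeded Cdk2 by 2.54 ± 0.58 and Cdk6 by 0.85 ± 0.62, the latter not called without replicate 2 (limma adjusted p = 0.0808). E2f1 exceeded E2f2 by 1.91 ± 0.11. Cdkn1b exceeded Cdkn2c by 0.88 ± 0.31, which was not called without replicate 2 (limma adjusted p = 0.136). The cyclins Ccne1 and Ccne2 differed by -0.13 ± 0.42, with signs that varied between libraries.

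Of the other pairs, Rrm1 exceeded Rrm2 by 1.34, 0.91 and 0.84 (mean 1.03, limma adjusted p = 2.92e-05), a call lost without replicate 2 (0.0769). Mki67 exceeded Top2a by 0.66, 0.82 and 0.16 (mean 0.55, limma adjusted p = 0.00150). Cdk2 lay below Cdk1 by 0.07, 0.44 and 0.50 in size (mean -0.34, limma adjusted p = 0.0180), not called without replicate 2 (0.103) or replicate 3 (0.224). Not called were Ccna2 against Ccnb1 (0.26 ± 0.08), Ccnb1 against Ccnb2 (0.04 ± 0.14), Tyms against Tk1 (-0.18 ± 0.44), Cdt1 against Gmnn (-0.14 ± 0.34), Bub1 against Bub1b (-0.34 ± 0.35) and Aurka against Aurkb (-0.11 ± 0.13). Ccna2 was nonetheless above Ccnb1 in all 3 libraries. Some of these pairs were called by the first fit under an alternative. Tyms against Tk1 was called in the second transcript table (-0.42) and without replicate 2 (-0.42). Cdt1 against Gmnn was called without replicate 2 (-0.28) and Ccne1 against Ccne2 without replicate 1 (-0.37). Ccna2 against Ccnb1 was called with a pseudocount of 0.1 (0.38).

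**Figure D4:**
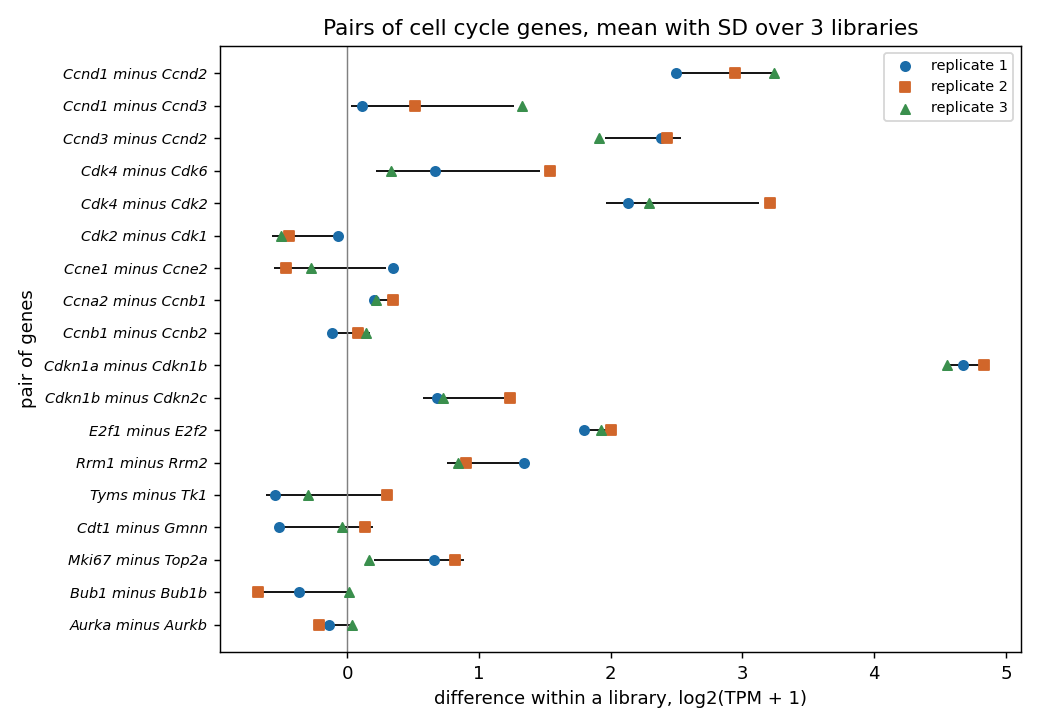
Difference of log2(TPM + 1) between the genes of 18 pairs, first minus second, with 1 point per library and a line for the mean ± SD over 3 libraries. Cdkn1a minus Cdkn1b lies farthest from 0, and points of Ccne1 minus Ccne2, Tyms minus Tk1 and Cdt1 minus Gmnn fall on both sides of it.

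Several of these levels rested on which transcripts the reads were assigned to. The effective length of a gene, which turns counts into TPM, differed by more than 1.3 times between libraries in 6 of the 41 genes (Cdk4, Ccne2, Mcm3, Tyms, Cdk1 and Bub1b), against 12.0% of all detected coding genes. For Cdk4 it was 1722, 1029 and 1759 bases. Its TPM stood highest in replicate 2, yet its log2 CPM was 6.27, 6.51 and 6.30. The transcript Cdk4-209, annotated as a retained intron and short, took 3.1, 49.6 and 0.0% of the gene's TPM in the second transcript table and 1.7, 47.1 and 0.0% in the first.

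Mcm3 had the same pattern, with an effective length of 2175, 1362 and 1769 bases. The retained intron transcript Mcm3-205 held 0.0, 48.1 and 8.8% of its TPM in the second table and 5.1, 55.7 and 19.0% in the first. On the log2 CPM scale Mcm3 was at 4.38, 4.45 and 4.51, so the TPM peak in replicate 2 was not seen there. Ccne2 had an effective length of 2710, 1055 and 2075 bases, and its short processed transcript Ccne2-205 held 0.0, 45.7 and 11.9% of its TPM in the second table. The length for Bub1b was 2676, 1558 and 3441 bases, and its retained intron Bub1b-203 held 0.0, 32.3 and 12.3%. Replicate 2 thus had the shortest effective length for Cdk4, Mcm3, Ccne2 and Bub1b. The same held for Tyms (1041, 600 and 722 bases) and Cdk1 (970, 732 and 775 bases). Tyms too had its highest TPM in replicate 2, while its log2 CPM was 0.77, 1.00 and 1.04.

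In 9 of the 41 genes transcripts not annotated as protein-coding took more than 20% of the gene's TPM in the second table, averaged over libraries (Cdk4, Ccne2, Mcm3, Tyms, Tk1, Top2a, Cdk1, Bub1b and Aurkb), and this held for 22.2% of all detected coding genes. The median share over the 41 genes was 2.38, 0.526 and 1.75%, against 2.76, 1.52 and 4.49% over all. Replicates 1, 2 and 3 had the highest share for 10, 9 and 12 of the 41 genes. They had it for 21.5, 28.9 and 49.5% of the 8737 detected coding genes with any such share, so replicate 2 did not stand out. For Tyms the transcript Tyms-205, of the nonsense-mediated decay class, took 41.8, 34.4 and 62.0%, and the full coding transcript Tyms-201 took 32.7, 14.1 and 33.0% of it. For Tk1 all noncoding transcripts together held 61.1, 57.8 and 63.6% in the second table and 55.1, 14.2 and 42.9% in the first, so in replicate 2 the tables disagreed widely. The retained intron transcript Cdk1-204 held 24.6, 31.8 and 35.0% of the TPM of Cdk1. For Cdkn1a the noncoding share was at most 0.108% in any library.

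**Figure D5:**
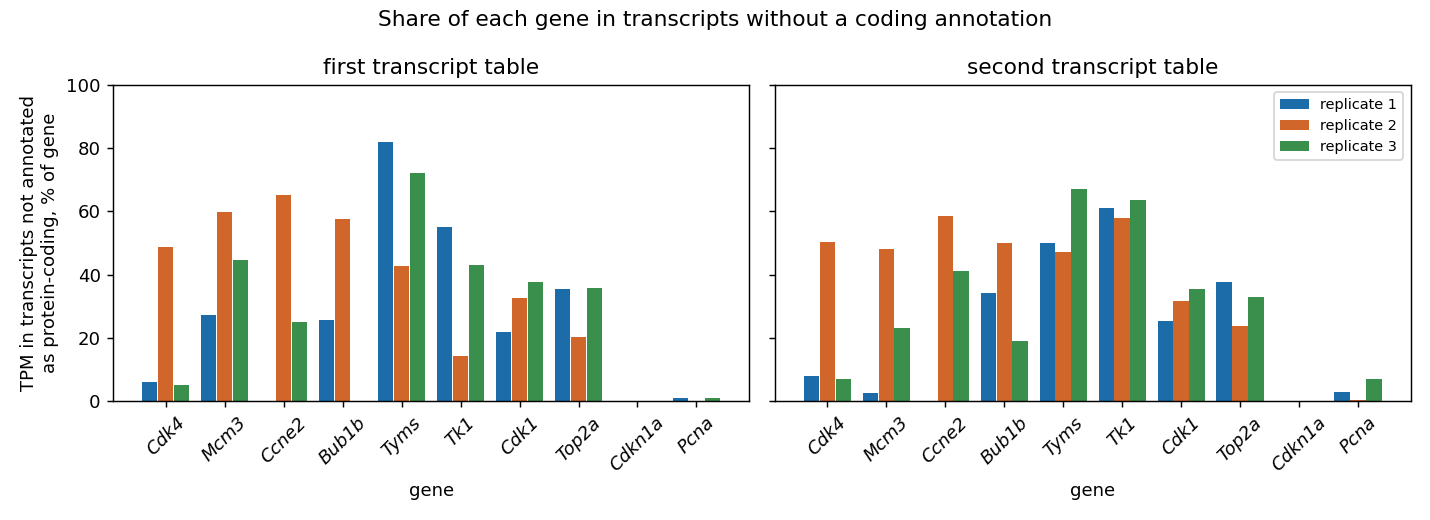
Percent of each gene's TPM in transcripts not annotated as protein-coding, per library, in the first and second transcript tables; Cdk4, Mcm3, Ccne2, Bub1b, Tyms, Tk1, Cdk1 and Top2a are 8 of the 9 genes over 20%, beside the 2 highest genes, Cdkn1a and Pcna. Cdk4 reaches 50.2% in replicate 2 of the second table and 7.86% and 6.86% in the others.

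The second table was also set against the gene table within each library, after both were scaled to the same sum over coding genes. It was lower for 1 of the 41 genes, against 3.36% of all detected coding genes called lower. That gene was Mcm3, with log2 differences of -0.37, -0.33 and -0.38 (limma adjusted p = 0.00440), a call lost without replicate 3. It was higher for 3 of 41, against 5.33% of all called higher. Those were Cdk6 (mean 0.33, limma adjusted p = 0.0359), Mcm7 (0.20, adjusted p = 0.0465) and Tk1 (0.48, adjusted p = 0.0378). None of those 3 was called when any replicate was left out. In the TPM as deposited, without that scaling, the group medians in the second table were 2.44, 1.81 and 0.834 TPM for G1, S and mitosis. They were lower than in the gene table but in the same order. Without a common scale, only the order can be compared.

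Whether counting used strand is not given in the sources used here, so genes that overlap others are uncertain. Cdk4 overlaps Tspan31 on the opposite strand, which had 2297, 1878 and 3444 counts beside 2929, 3497 and 4452 for Cdk4. Cdt1 shares its strand with the overlapping gene Gm20388, at 2085, 3559 and 2844 counts beside 530, 686 and 1035. Cdc20, at 91, 112 and 86 counts, overlaps Elovl1 on the other strand, at 2803, 3180 and 3917 counts. For Cdt1 and Cdc20 the neighbour had the larger count in every library. The same held for Ccne2 (neighbour Ints8), Mcm7 (Cops6 and Ap4m1), Ccna2 (Exosc9) and Cdca8 (9930104L06Rik), all on opposite strands. Processed copies of Pcna and Ccnb2 had few counts, 17, 35 and 37 for Pcna-ps2 and 10, 16 and 17 for Ccnb2-ps. The deposited TPM interval of Ccnd2 in replicate 1 was also wide, its upper bound 74.6 times its lower, while no other interval of the 41 genes exceeded 2.33 times.

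Other genes of replication and mitosis were mostly below the median coding gene as well. Of all detected coding genes, 45.8% were called above it and 45.7% below, the shares to set beside each list from here on. Of 38 further replication genes 6 were above the median coding gene and 31 below. None was called in the spread test, which called 1.71% of all genes tested. The highest were the clamp loader genes Rfc2, at 19.99, 23.32 and 13.61 TPM, and Rfc1, at 13.64, 14.93 and 9.12 TPM, followed by Rpa1, a subunit of the single-strand binding complex, at 14.73, 12.37 and 8.70 TPM. Of 33 further mitosis genes 6 were above and 27 below. The highest were Cenpa, the centromeric histone, at 42.41, 30.12 and 20.54 TPM, Pttg1, which encodes securin, at 17.97, 23.40 and 10.51 TPM, and Incenp, the scaffold of the passenger complex, at 16.27, 15.53 and 9.23 TPM. On the log2 CPM scale 6, 18 and 14 of the replication genes and 11, 20 and 2 of the mitosis genes were highest in replicates 1, 2 and 3. Thus the further mitosis genes were also seldom highest in replicate 3, while most further replication genes were not highest there.

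Among 17 genes of the retinoblastoma, E2F and DREAM families 5 were above the median and 12 below. Rb1, the retinoblastoma gene, was highest at 21.22, 22.16 and 13.75 TPM, then its relative Rbl2, a part of DREAM, at 14.48, 19.07 and 9.23 TPM, and the E2F partner Tfdp1 at 10.29, 12.77 and 7.83 TPM. Of 12 further inhibitors and p53 pathway genes 11 were detected, 9 of them above the median and 2 below. Gadd45b, a stress-response gene, was at 241.99, 230.99 and 146.18 TPM, Btg2, an antiproliferative gene, at 224.11, 250.45 and 129.24 TPM, and Ccng1, a p53 target, at 50.09, 59.10 and 39.75 TPM. Cdkn1c, which encodes p57, was the gene of these lists called in the spread test, at 4.58, 5.54 and 5.54 log2 CPM (edgeR adjusted p = 0.0141), lowest in replicate 1 as Ccnd1 was. In the 8 growth input genes 3 were above and 4 below, shares near those of all detected coding genes (45.8 and 45.7%). Csf1r, the receptor of CSF1, was at 392.17, 452.39 and 214.30 TPM, Ccnk, a transcriptional cyclin, at 11.41, 14.96 and 7.95 TPM and Myc, a growth-promoting factor, at 6.35, 10.36 and 7.60 TPM.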

How the data were processed

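RNA of 3 libraries in 1 group was analysed. The deposited notes give mm10 and GENCODE M21 for the 3 tables of a library. In the gene table and in 1 transcript table (the first), the authors gave expected counts and TPM based on a transcriptome alignment, and in the gene table also TPM interval bounds, per the file headers. In the other transcript table (the second), estimated counts and TPM were made by the authors straight from reads, per the deposited notes. Names of the quantification software were not given in the sources used here. The 41 genes, their groups and all lists were chosen with earlier results of these data known.

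Expected counts were rounded, filtered with filterByExpr and TMM-normalised for the spread test (edgeR 4.0.16, R 4.3.3, intercept-only model with trended dispersion). The TMM factors were 1.0043, 1.0353 and 0.9617. log2 CPM used a prior count of 2. A count of 3, the limit that a count of 0 allows, equals 0.0792, 0.0808 and 0.0509 CPM in replicates 1, 2 and 3, for counting error only. Levels, pairs and table differences were tested on log2(TPM + 1) with limma 3.58.1 (trend) over coding genes with a mean TPM of at least 0.1, two-sided, with Benjamini-Hochberg adjustment at 0.05. DESeq2 1.42.0 gave alternative size factors. Python 3.11.15 with pandas 2.3.3 read the tables. The tests were also run on simulated data, which for the spread test used means, library sizes and dispersions fitted to these libraries. For limma they used independent noise of equal spread and no shared second gene, unlike the pair fits. The outcomes are not used as support here. All 41 genes are named with their levels and all 18 pairs are given. Of each other pathway list the 3 genes with the highest mean TPM and any gene called in the spread test are named. Alternatives were another pseudocount, other filters, other scalings, the second table and leaving out each library. The own-variance test of the pairs was added after seeing the data. The labels pair no groups.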

Additional observations from a re-analysis of the deposited data

How the results depend on the processing

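No paired analysis was possible because there is 1 group. With no filter on low values, 19 genes were above the median coding gene, a count without a share over all genes in that setting. The spread test called 115 of the protein-coding genes when run on those alone and 59 to 129 genes when a replicate was left out. It called 0 of the 41 genes with no filter on low counts, 0 in the second transcript table, and 0 to 1 when a replicate was left out. Without rescaling, 41 genes were lower and 0 higher in the second table, a count given without the share over all genes. The tables then lack a common scale, so that count says nothing about these genes. Cdkn1a, for example, stood at 144.7 TPM in the second table and 323.93 TPM in the gene table in replicate 1. With rescaling and a pseudocount of 0.1, 1 of the 41 genes was higher in the second table. With rescaling and without a replicate, 0 to 1 were lower and 0 higher. Scaled to coding genes alone, the G1, S and mitotic medians were 18.5, 14.2 and 5.61 TPM, by construction higher. Those from the second transcript table, as deposited, were 2.44, 1.81 and 0.834 TPM. The median noncoding share was 0.466% in the first transcript table.

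Of the levels of the 41 genes under the alternatives, 248 kept their direction and call, 8 lost the call, 12 gained one and 14 changed sign. With no filter on low values, which lowers the median, the log2 difference from it turned to 0.45 for Cdk2, 0.37 for Cdkn2c, 0.40 for E2f1, 0.18 for Mcm2, 0.12 for Mcm4, 0.45 for Cdt1, 0.59 for Gmnn, 0.35 for Rrm1 and 0.51 for Top2a. With a mean TPM of at least 1, which raises it, the difference turned to -0.247 for Ccnd3, -0.061 for Mcm3 and -0.235 for Cdk1. It was -0.048 for Mcm3 in the second table, and for Gmnn it ran from -0.080 to 0.077 when a replicate was left out. The cause was not tested. For the pairs 111 values kept direction and call, 6 lost the call, 5 gained one and 4 changed sign. The changes of sign came from leaving out a replicate. That gave -0.367 to 0.039 for Ccne1 minus Ccne2 and -0.016 to 0.113 for Ccnb1 minus Ccnb2. It gave -0.423 to 0.002 for Tyms minus Tk1 and -0.276 to 0.049 for Cdt1 minus Gmnn. Depth limits the lowest genes, such as Ccne1 with 57 to 109, Tyms with 63 to 114 and Cdc20 with 86 to 112 counts per library.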
